A study of Homo sapiens with 6 samples.

Results

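The 4 genes of the core-binding factor family (RUNX1, RUNX2, RUNX3 and CBFB) and 4 osteoblast effectors that lie downstream of DLX5 and RUNX2 in bone (SP7, ALPL, BGLAP and IBSP) were taken by gene name from the 58735 genes of the deposited tables. All 8 were found, 7 of them had at least 1 count, and 5 had enough counts to be tested. RNA came from SY5Y, a human neuroblastoma cell line, in 6 bulk RNA-seq libraries. In 3 libraries the cells overexpressed DLX5, a distal-less homeobox transcription factor, and the other 3 libraries were labelled as controls. All cultures had the same medium, DMEM/F12 with fetal bovine serum and antibiotics. The labels give neither the vector and promoter behind DLX5, nor what the controls received, nor whether the overexpressing line was 1 clone, nor whether replicates were separate cultures. P-values below weigh the difference between the groups against the variation of these 6 libraries within groups, part of which may be technical. They may thus not extend to other cultures or clones.

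RUNX proteins bind DNA through a Runt domain, and CBFB is their common partner, which does not touch DNA itself but raises the affinity of the complex. RUNX1 is known for blood formation, RUNX2 for commitment to the osteoblast, and RUNX1 and RUNX3 also for subtypes of sensory neurons, which like SY5Y cells have a neural crest origin. In the osteoblast, DLX5 is known to act upstream of RUNX2 and of SP7 (osterix) and to bind homeodomain elements of the ALPL, BGLAP and IBSP promoters, and the last 3 genes encode tissue-nonspecific alkaline phosphatase, osteocalcin and bone sialoprotein.

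Promoter sequences are shown first, because RUNX and DLX proteins are known to act through short elements of this kind. RefSeq promoter windows (GRCh38.p14, 250 bases before to 50 after an annotated start) matched 6 of the 8 members, with 10 windows in all, and starts are numbered from the 5′-most one of each gene. They were searched on both strands for the RUNX core (TGTGGT or TGCGGT) and a DLX homeodomain core (TAATTA or TAATTG), and capitals mark the matches. TAATTA reads the same on both strands and was counted once. The 250 bases before the start are printed for the 3 members whose counts changed. They are RUNX1 (chr21:34888700-34888949, minus strand), the first start of RUNX2 (chr6:45328080-45328329, plus strand) and the first start of ALPL (chr1:21508734-21508983, plus strand).
RUNX1: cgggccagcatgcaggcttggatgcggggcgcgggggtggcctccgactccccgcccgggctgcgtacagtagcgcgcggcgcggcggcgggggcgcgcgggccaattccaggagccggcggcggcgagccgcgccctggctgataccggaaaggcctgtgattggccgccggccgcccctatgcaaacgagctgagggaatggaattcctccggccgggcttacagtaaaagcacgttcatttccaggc
RUNX2: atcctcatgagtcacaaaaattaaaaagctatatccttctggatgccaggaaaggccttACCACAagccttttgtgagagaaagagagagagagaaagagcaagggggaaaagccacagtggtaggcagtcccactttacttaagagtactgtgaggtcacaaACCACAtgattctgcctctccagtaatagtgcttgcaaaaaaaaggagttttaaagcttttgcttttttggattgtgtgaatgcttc
ALPL: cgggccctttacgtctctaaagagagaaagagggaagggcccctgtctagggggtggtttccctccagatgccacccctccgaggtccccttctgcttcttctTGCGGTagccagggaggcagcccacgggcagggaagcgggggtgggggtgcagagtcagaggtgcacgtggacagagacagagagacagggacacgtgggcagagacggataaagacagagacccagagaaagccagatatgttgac

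The only RUNX1 window held no match to either core. It lies inside the gene, whose 5′ end is annotated at 36004667, and no window farther 5′ was searched. The first window of RUNX2 held 2 RUNX cores before the start, seen above as ACCACA because they lie on the opposite strand, and 3 more in the 50 bases after it, which makes 5. The second window of RUNX2 and that of RUNX3 held no match to either core. At least 5 RUNX cores occurred in 4 of the 35116 RefSeq windows of this length (0.0114%), and at least 1 in 19.6%. A run of 18 bases with a pair of RUNX cores was shared, letter for letter, by the first windows of RUNX2 (chr6:45328344-45328361, from 15 bases after the start) and RUNX3 (chr1:24965126-24965143, minus strand, from -133). It was found in 2 of the 35116 windows, those of RUNX2 and RUNX3, and RUNX1 had no window at its annotated 5′ end.
RUNX2 and RUNX3: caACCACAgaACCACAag

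ALPL held 1 RUNX core, at -147 to -142 from its first start, and its other windows held none. The first window (chr1:21508734-21509033) ends before the start of the counted gene, at 21509372. The second window (chr1:21509173-21509472) spans that position. BGLAP held 1, at -163 to -158. The DLX core was found in 1 of the 10 windows, that of IBSP, at -201 to -196, against 11.4% of all windows with at least 1 such match. The 30 bases that hold each of these last matches are given below, for BGLAP chr1:156242009-156242038 and for IBSP chr4:87799341-87799370, both on the plus strand. A match describes letters in a window. The tables count reads per gene and do not say which start was used, so no match was tied to a start in use.
BGLAP: ccgcagctcccaACCACAatatcctttggg
IBSP: catctaaaccttCAATTAaattccacaatg

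**Figure D1:**
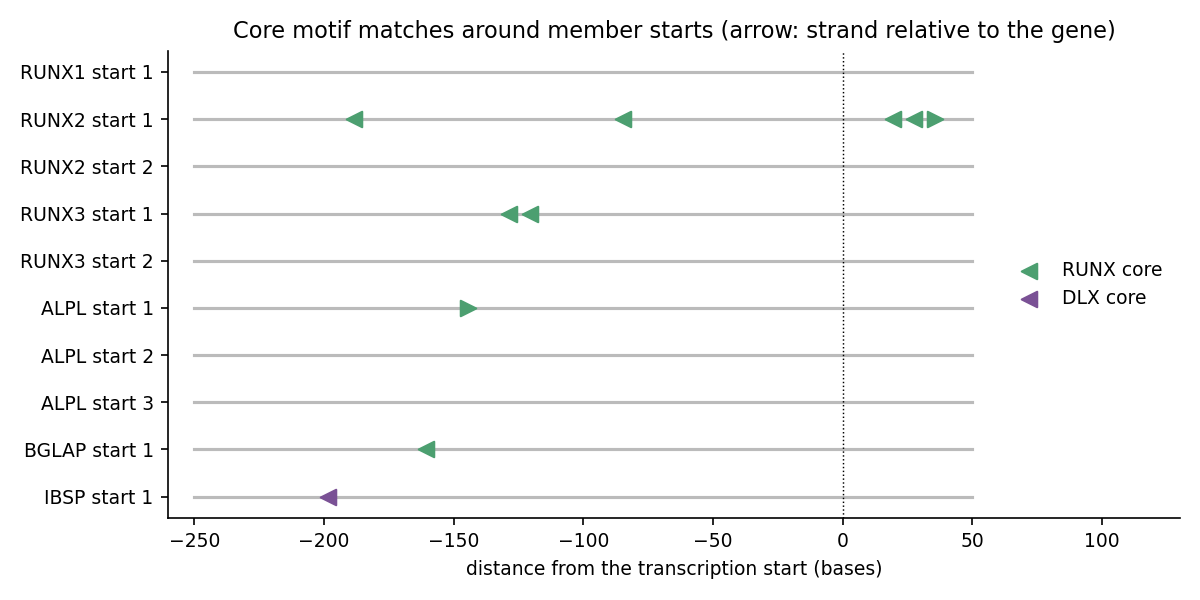
Position of RUNX core (green) and DLX core (purple) matches in the 10 promoter windows of 6 members. The x axis is the distance from the annotated start in bases and each row is 1 start, with arrows showing the strand relative to the gene. The first start of RUNX2 holds 5 RUNX cores and the first start of RUNX3 holds 2. Their second starts hold none, nor does the only RUNX1 window, which lies inside the gene.

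RUNX1 rose, RUNX2 and ALPL fell, and CBFB and BGLAP did not pass the test, while RUNX3, SP7 and IBSP held too few counts for one. Of the 5 tested members, 1 was higher and 2 were lower with DLX5 (edgeR quasi-likelihood test, adjusted p under 0.05 over all tested genes). The same rule called 58.6% of the 17269 genes tested, 29.8% as higher and 28.8% as lower, so 3 calls among 5 members is near the share of all genes. Levels are CPM, the usual read-depth unit, here with library totals scaled by TMM. A CPM carries the SD of its 3 libraries and a log2 fold change its standard error.

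**Figure D2:**
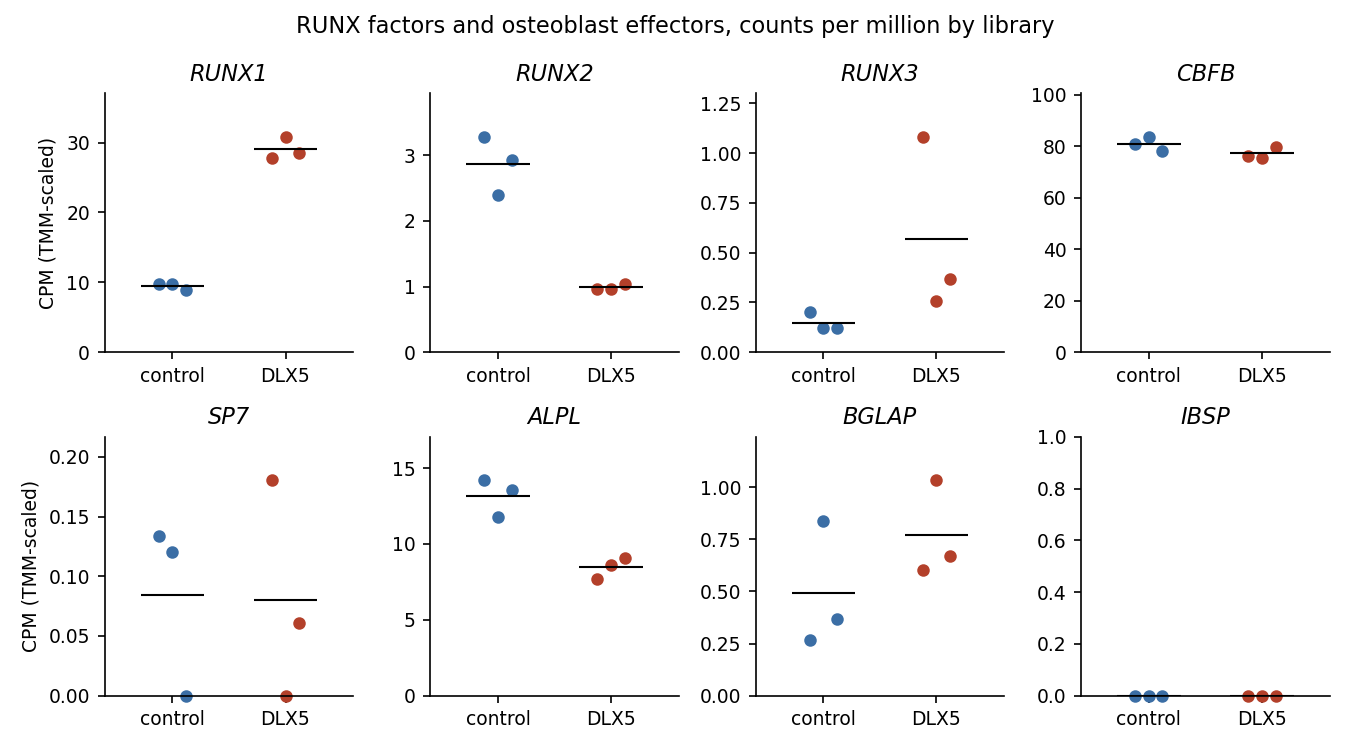
TMM-scaled CPM of each member in 3 control and 3 DLX5 overexpression libraries. Each point is 1 library, the line is the group mean, and each panel has its own linear scale from 0. The groups separate for RUNX1 (upwards) and for RUNX2 and ALPL (downwards), RUNX3 has 1 library far above the rest, and IBSP is at 0 in all 6.

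RUNX1 (ENSG00000159216, chromosome 21, 34787801 to 36004667, minus strand, GRCh38) was at 27.8, 30.9 and 28.6 CPM in the DLX5 libraries and at 9.78, 9.71 and 8.83 CPM in the controls. The groups did not overlap, which held for 62.5% of all genes tested. This is a rise of 3.08-fold, a log2 fold change of 1.62 ± 0.10 (edgeR, adjusted p = 1.15e-13). Among the genes called higher, 1127 rose by more than RUNX1. In bulk RNA a change in the number of cells that hold a transcript cannot be told apart from a change per cell. The RUNX1 locus contains 7 other annotated genes, of which EZH2P1, a pseudogene, had 2 counts and the others had 0, and none shares an exon base with RUNX1.

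RUNX2 (ENSG00000124813, chromosome 6, 45328157 to 45664349, plus strand), the osteoblast regulator, went the other way. It had 16, 15 and 17 counts in the DLX5 libraries and 49, 40 and 48 in the controls, so every control held more than any DLX5 library. Mean levels of 0.989 ± 0.0402 CPM in the overexpressing cells and 2.87 ± 0.445 CPM in the controls gave a fall of 1.53 on the log2 scale (SE 0.28, edgeR, adjusted p = 3.49e-05), or 2.88-fold lower. At these counts the 95% interval of the change ran from -2.09 to -0.96 on the log2 scale. The gene overlaps SUPT3H, which lies on the opposite strand and had more counts, 388 over the DLX5 libraries and 288 over the controls. SUPT3H rose by 0.41 ± 0.14 (edgeR, adjusted p = 0.0162), and none of the 8192 exon bases of RUNX2 is an exon base of SUPT3H or of another annotated gene.

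RUNX3 (ENSG00000020633, chromosome 1, 24899511 to 24965121, minus strand) had 18, 4 and 6 counts with DLX5 and 3, 2 and 2 in control. The groups did not overlap, but DLX5 overexpression replicate 1 held 18 of the 28 counts of its group. The ratio of scaled counts was 3.96 with a 95% counting interval of 1.69 to 10.7 (exact binomial, counting error only), and without that library it was 2.15 with an interval of 0.739 to 6.65. RUNX3 failed the filter on low counts. With no filter it passed (edgeR, log2 fold change 1.91 ± 0.69, adjusted p = 0.0207).

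CBFB (ENSG00000067955, chromosome 16, 67029116 to 67101058, plus strand) was by far the most abundant transcript of the family. It stood at 76.4, 75.6 and 79.7 CPM with DLX5 and 80.8, 83.8 and 78.4 CPM in control, and the groups overlapped. The log2 fold change was -0.07 ± 0.06 (edgeR, adjusted p = 0.371), with a 95% interval of 0.871 to 1.04-fold. A change of CBFB by 1.5-fold in either direction lies outside this interval.

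**Figure D3:**
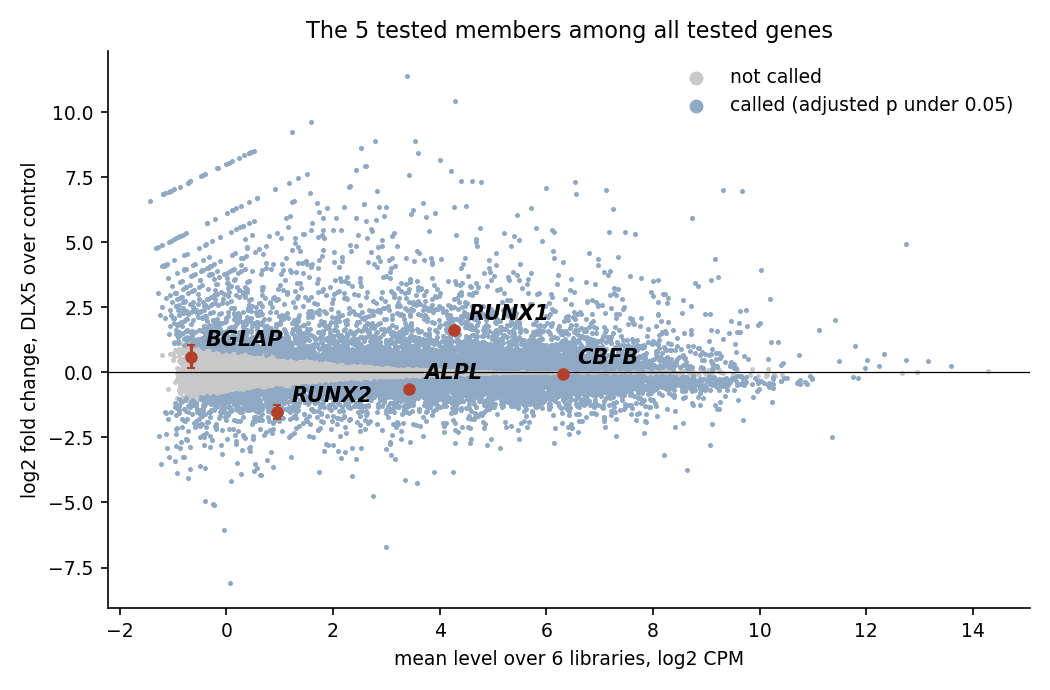
Log2 fold change (DLX5 over control, y axis) against the mean level over 6 libraries (log2 CPM, x axis) for all 17269 tested genes, with called genes in blue. The 5 tested members are named, with standard errors as bars. RUNX1 lies above 0 and RUNX2 and ALPL below, inside the cloud of called genes, and CBFB lies close to 0.

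RUNX1 made up a larger share of the RUNX transcripts in every DLX5 library than in any control. Levels of different genes were set side by side as FPKM, the deposited values scaled by gene length and library total. RUNX1 made up 83.3%, 91.9% and 89.9% of the RUNX FPKM sum in the DLX5 libraries and 58.5%, 66.1% and 59.6% in the controls. The means were 88.4% ± 4.46 and 61.4% ± 4.12 (SD, n = 3; exact two-sided permutation test, p = 0.1, the smallest that 3 libraries against 3 can give). The share of RUNX2 went from 35.3% ± 3.69 in control to 5.72% ± 0.409 with DLX5, and RUNX3 was at 3.26% ± 0.761 and 5.93% ± 4.59. In counts, 1 RUNX2 read stood against 2.98, 4.05 and 3.02 RUNX1 reads in the controls, and against 28.9, 31.9 and 27.6 in the DLX5 libraries. The groups did not overlap in this ratio.

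The RUNX FPKM sum was 2.12, 2.15 and 2.02 with DLX5 and 1.07, 0.934 and 0.945 in control. CBFB exceeded this sum in all 6 libraries, by 8.87-fold ± 0.526 with DLX5 and 19.9-fold ± 1.65 in control. These ratios depend on gene length. The length given for RUNX1 is 15574 bases, the union of the exons of 17 annotated transcripts, and its longest transcript has 7274. With the longest transcript of each gene as length, CBFB exceeded the RUNX sum by 5.74-fold ± 0.340 and 14.2-fold ± 0.947, and the RUNX1 share was 93.0% ± 2.46 and 71.4% ± 3.50.

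**Figure D4:**
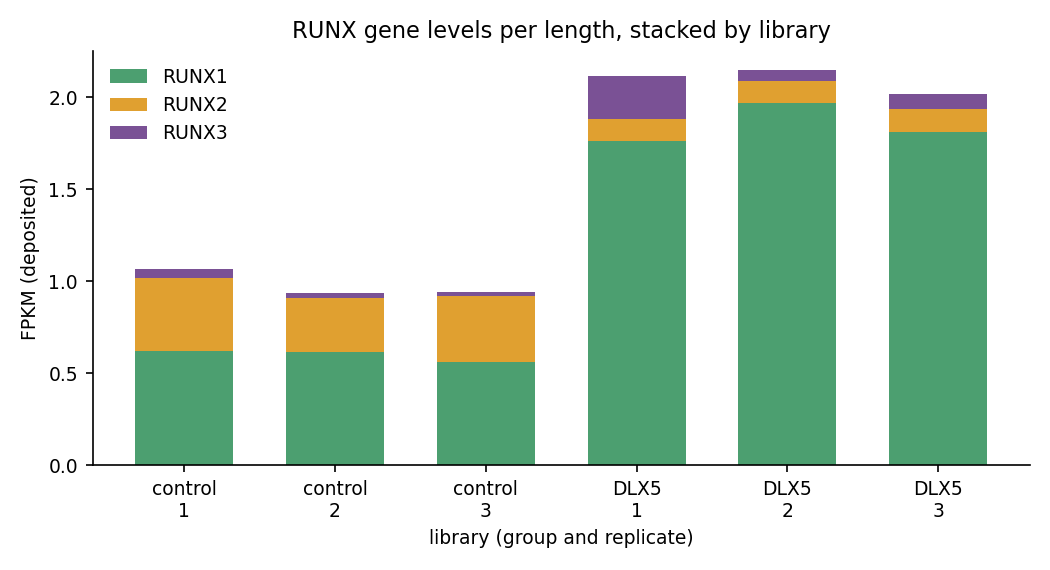
Deposited FPKM of RUNX1, RUNX2 and RUNX3 stacked for each library, with controls on the left and DLX5 overexpression on the right (y axis, linear from 0). The sum is about 1 FPKM in each control and about 2 FPKM in each DLX5 library, and the RUNX2 band is thinner in all 3 DLX5 libraries than in any control.

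ALPL was the only one of the 4 osteoblast effectors with a mean of 1 CPM or more, in either group. ALPL (ENSG00000162551, chromosome 1, 21509372 to 21578412, plus strand), the phosphatase that frees phosphate from pyrophosphate at mineralising surfaces, was at 7.70, 8.59 and 9.07 CPM with DLX5 and 14.2, 11.7 and 13.5 CPM in control. All 3 DLX5 libraries lay below all controls. ALPL fell by 0.64 on the log2 scale (SE 0.12, edgeR, adjusted p = 8.81e-05), or 1.55-fold, and 1791 of the genes called lower fell by more. On a log2(FPKM + 1) scale, which shrinks low genes, the changes of RUNX1 and RUNX2 were 0.83 and -0.27 and remained called (limma).

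BGLAP (ENSG00000242252, chromosome 1, 156241962 to 156243321, plus strand), the calcium-binding osteocalcin gene, had 10, 16 and 11 counts with DLX5 and 4, 14 and 6 in control. The groups overlapped because control replicate 2 held more than 2 of the DLX5 libraries. The log2 fold change was 0.61 ± 0.46 (edgeR, adjusted p = 0.263), with a 95% interval of 0.795 to 2.93-fold, which holds both no change and a rise of 2-fold. Without control replicate 2 it was 1.24, still short of the threshold (adjusted p = 0.0638). Of the 1190 exon bases of BGLAP, 398 (33.4%) also belong to the readthrough gene PMF1-BGLAP, which had 2 counts in all, and 1 base to PAQR6, a neighbour on the other strand with 1797. PAQR6 rose by 0.69 ± 0.10 on the log2 scale (edgeR, adjusted p = 2.73e-06), and any part of its reads in the BGLAP counts was not tested. The sources used here do not say how reads in shared bases were assigned, and the BGLAP counts are uncertain for that reason.

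SP7 (ENSG00000170374, chromosome 12, 53326575 to 53345315, minus strand), the zinc finger factor that acts after RUNX2, had 3, 0 and 1 counts with DLX5 and 2, 2 and 0 in control. The ratio of scaled counts was 0.989 with a 95% counting interval of 0.184 to 5.31, and a difference was not detectable at this depth. IBSP (ENSG00000029559, chromosome 4, 87799581 to 87812435, plus strand) had 0 counts in all 6 libraries, of 49763664 reads over the DLX5 group and 47005720 over the controls. A count of 0 allows up to 3 counts over a group, or 0.0618 CPM with DLX5 and 0.0625 CPM in control.

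Ordered by FPKM, the controls ran CBFB (19.5 ± 0.629), ALPL (4.34 ± 0.422), RUNX1 (0.602 ± 0.0332), BGLAP (0.409 ± 0.254), RUNX2 (0.347 ± 0.0542), RUNX3 (0.0324 ± 0.0102), SP7 (0.0246 ± 0.0214) and IBSP (listed at 0). At the deposited gene lengths, BGLAP could not be separated from RUNX1 or from RUNX2, nor RUNX3 from SP7, nor SP7 from IBSP, by the ranges of their libraries. With DLX5 the order was CBFB (18.5 ± 0.487), ALPL (2.79 ± 0.230), RUNX1 (1.85 ± 0.108), BGLAP (0.640 ± 0.196), RUNX3 (0.125 ± 0.0980), RUNX2 (0.120 ± 0.00468), SP7 (0.0233 ± 0.0266) and IBSP. There the ranges of RUNX3 and RUNX2 overlapped, as did those of SP7 and IBSP. Both orders depend on gene length, given as 15574 bases for RUNX1, 3007 for ALPL and 1190 for BGLAP. Their longest transcripts have 7274, 2589 and 931 bases. At those lengths RUNX1 would lie above ALPL with DLX5, and above BGLAP in the controls without overlap. CBFB was above 86.8% of the tested genes in control FPKM and ALPL above 51.8%, while RUNX1 went from above 15.8% in control to above 31.0% with DLX5 and RUNX2 from above 10.1% to above 1.53%.

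The genes whose pattern over the 6 libraries was nearest were sought among protein-coding genes with a mean of at least 2 log2 CPM, by the root mean square distance of centred log2 CPM. They were DACT1 (0.0263) and LHFPL6 (0.0356) for RUNX1, CDK5R2 (0.0661) and DTX1 (0.0800) for RUNX2, SRRM3 (0.0392) and PEAR1 (0.0406) for ALPL, and NUDT2 (0.00716) and TPD52L2 (0.0151) for CBFB. For BGLAP the nearest, EXPH5 (0.220) and ANKRD12 (0.254), lay farther away. With 2 groups of libraries, this measure mostly follows the difference between the groups, and it is given as a description.

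Of 29 tested RUNX cofactors and regulators of RUNX protein, 9 were higher, 8 lower and 12 not called (58.6%, the same share as over all genes), and the median log2 fold change was -0.06 (all tested genes: -0.00183). The Hippo coactivators WWTR1 and YAP1, which are known to bind RUNX proteins, rose from 9.39 ± 0.412 to 46.1 ± 0.698 CPM and from 10.9 ± 0.377 to 48.5 ± 1.68 CPM, log2 fold changes of 2.30 ± 0.09 and 2.15 ± 0.09. The zinc finger gene ZNF423 fell by 1.23 ± 0.06 and the GATA cofactor ZFPM1 fell by 1.19 ± 0.08. Another 3 members were picked after their values were seen. The corepressor RUNX1T1, known as the fusion partner of RUNX1 in leukaemia, rose by 1.10 ± 0.09, and the Groucho corepressors TLE3 and TLE4 fell by 0.31 ± 0.06 and 0.25 ± 0.07. The other Groucho genes of the list were not called, with log2 fold changes of -0.04 ± 0.06 for TLE1, 0.27 ± 0.13 for TLE2 and 0.05 ± 0.06 for AES.

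Among other transcription factors of the osteoblast, 16 of 26 tested were higher, 7 were lower and 3 were not called (88.5% called, against 58.6% of all genes tested), and the median log2 fold change was 0.34. The homeobox gene MSX2 went from 22.4 ± 1.6 to 89.2 ± 2.55 CPM (log2 fold change 1.99 ± 0.08), and the basic helix-loop-helix factor BHLHE40 from 8.64 ± 0.448 to 42.7 ± 2.05 CPM (2.30 ± 0.09). ID2, an inhibitor of basic helix-loop-helix factors, fell by 1.27 ± 0.06.

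Of 34 bone matrix and mineralisation genes, 17 could be tested. Of these, 13 were higher, 3 were lower and 1 was not called (94.1% called, against 58.6% of all genes tested), and the median log2 fold change was 1.00. The matrix Gla protein MGP, an inhibitor of mineralisation, went from 9.83 ± 0.755 to 395 ± 8.1 CPM and the collagen COL1A1 from 128 ± 8.03 to 1947 ± 52.7 CPM. The cross-linking enzyme LOX rose by 3.40 ± 0.08 and CDH11, the osteoblast cadherin, by 2.53 ± 0.06. The 3 that fell were the phosphate transporter SLC20A1 (by 0.89 ± 0.07), the pyrophosphate exporter ANKH (by 0.70 ± 0.08) and the sphingomyelinase SMPD3 (by 0.67 ± 0.08), named after their values were seen. SMPD3 overlaps PRMT7 on the other strand, in 3.34% of its exon bases. Of the 17 untested genes, 7 had 0 counts in all libraries, among them the osteocyte genes DMP1 and MEPE. OMD had 27 counts with DLX5 and 0 in control, and the osteocyte gene SOST had 10 and 0. IFITM5 had 9 and 1, and PHOSPHO1 had 7 and 0. COL10A1 went the other way, with 1 and 15, as did MMP13 with 2 and 3 and STC1 with 0 and 2. All of these untested genes were also named after their values were seen.

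**Figure D5:**
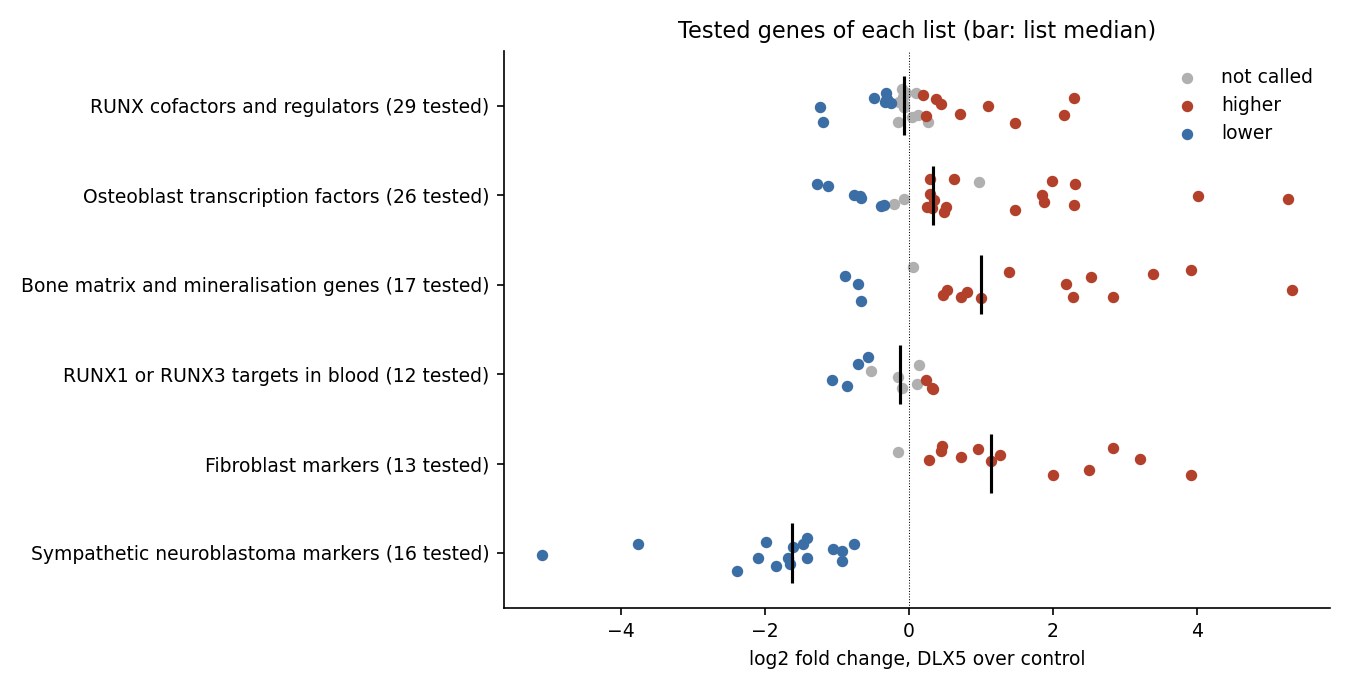
Log2 fold change (DLX5 over control, x axis) of the tested genes of 6 lists, 1 point for each gene, red where called higher, blue where called lower and grey where not called. The black bar is the list's median. Bone matrix genes lie mostly to the right, RUNX cofactors lie on both sides, and all 16 sympathetic neuroblastoma markers lie to the left.

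Of 23 genes known as targets of RUNX1 or RUNX3, mostly from blood, 12 could be tested. Of these, 3 were higher, 4 were lower and 5 were not called, so 58.3% were called, near the 58.6% of all genes tested. The median log2 fold change was -0.12, and -0.33 without DLX5 overexpression replicate 1. The list does not separate activated from repressed targets, so neither the calls nor the median give a direction of RUNX activity. The cell cycle inhibitor CDKN1A rose by 0.33 ± 0.06 and the T cell lineage factor ZBTB7B by 0.33 ± 0.07. The haematopoietic factor MYB fell by 1.06 ± 0.15.

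Markers of other cell types were read beside these results, and their calls stand against the 58.6% of all tested genes called. PTPRC, ACAN, COL2A1 and TH were named below after their values were seen. Blood markers were low. Their sum ran from 8.52 to 9.32 CPM with DLX5 and 6.65 to 8.59 CPM in control, PTPRC (CD45) had 0 and 4 counts, and CD3E and HBA2 were at 0. Of the 7 genes of this list that were tested, 2 were higher and 1 lower (42.9% called). They include PECAM1, VWF and TIE1, which also mark endothelium. ITGA2B rose by 0.63 ± 0.18, KLF1 fell by 2.27 ± 0.41, PECAM1 had 41 counts against 2 and was called higher, and CD34 had 19 counts against 38 and was not called. Of 13 fibroblast markers, 3 of which are also in the bone matrix list, 12 were higher and 0 lower (92.3% called), or 1 lower with upper-quartile factors or unscaled totals. Their sum ran from 7042 to 7283 CPM with DLX5 and from 1645 to 1701 CPM in control. COL3A1 rose from 1089 ± 17 to 4383 ± 77.3 CPM, LUM by 3.21 ± 0.09 and FAP by 2.50 ± 0.10, and no marker of this list was under 1 CPM in either group. Whether other cells or the SY5Y cells themselves held these transcripts was not tested. Their link to the changes of RUNX1, RUNX2 and ALPL was not tested either.

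Of 7 chondrocyte markers tested, 3 were higher and 2 lower (71.4% called), and the list's sum was 79.2 to 82.7 CPM against 46.2 to 48.6 CPM. SOX5 rose by 2.70 ± 0.15, MATN3 by 1.48 ± 0.11 and SOX9 by 0.29 ± 0.10, SOX6 fell by 0.55 ± 0.15, and the untested defining genes ACAN and COL2A1 had 2 and 21 counts with DLX5 and 1 and 27 in control. SOX9 did not pass without DLX5 overexpression replicate 2 (edgeR, 0.24, adjusted p = 0.0704), without control replicate 2 (0.25, adjusted p = 0.0525) or with unscaled totals (0.22, adjusted p = 0.0530), and SOX6 did not with limma on log2(FPKM + 0.1) (-0.43, adjusted p = 0.0547). Osteoclast markers were low, with sums of 18.0 to 19.6 CPM against 17.0 to 17.7 CPM, all 4 tested called, 2 higher (CTSK and OSCAR), 2 lower (MMP9, which shares 18.4% of its exon bases with SLC12A5-AS1, and TNFRSF11A, not called without DLX5 overexpression replicate 3, at -0.64 and adjusted p = 0.0549), and OCSTAMP and ATP6V0D2 at 0. Schwann and glial markers summed to 34.7 to 37.0 CPM against 43.1 to 49.1 CPM, with 83.3% of 6 called, 3 higher (MBP and ERBB3 among them), 2 lower (PMP22 and S100B), and FABP7 and CDH19 at 0.

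The labelled cell type matched its markers in the controls, where all 16 sympathetic neuroblastoma markers were at 1 CPM or more. All 16 were lower with DLX5 (median log2 fold change -1.63), where TH had 2 counts against 80 and the other 15 stayed at 1 CPM or more, their sum going from 7779 to 8421 CPM in control to 2636 to 2792 CPM. CHGA fell by 3.76 ± 0.08, DDC by 2.38 ± 0.07, HAND1 by 2.09 ± 0.07 and DBH by 1.98 ± 0.06 on the log2 scale. DLX5 itself stood at 1609 ± 59.1 CPM in the overexpressing libraries and 12.8 ± 0.804 CPM in the controls, so each library matched its label. The part of this broad change in the values of the RUNX genes and ALPL was not tested. Library totals ran from 14644077 to 16886026 assigned reads, and the lists above were compared without a test of the list as a whole.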

How the data were processed

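The authors deposited whole-number read counts per gene and, from the same reads, FPKM values, which equal the deposited counts over gene length and a scaled library total (0.968 to 1.03 times the sum of counts). The submitters' processing notes list HISAT2 2.0.5, featureCounts 1.5.0-p3 and hg19 but no settings; strand and multi-mapping rules are not given in the sources used here. All 58735 genes nevertheless have GENCODE 29 starts and ends on GRCh38, the build used for coordinates.

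Groups follow the labels, 3 libraries against 3. Counts were tested with edgeR 4.0.16 (R 4.3.3): filterByExpr by group left 17269 genes, scaled by TMM. The quasi-likelihood test was two-sided, and its p-values were adjusted by Benjamini-Hochberg across these genes. The SE is the log2 fold change over the square root of F and intervals use the test's degrees of freedom. Low counts got exact 95% binomial intervals and a floor of 3 counts, which cover counting error only. Medians come from tested genes alone.

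The members and the 10 further gene lists were chosen with earlier results of these data known. After the tables were read, 3 symbols left the lists: TCRB (no match), TLE5 (listed as AES) and TAZ (tafazzin in these tables). Named genes are the members, genes overlapping them, up to 4 tested genes of each list by adjusted p, markers of other cell types at 0 counts, DLX5, and the 2 nearest patterns per tested member; others are marked as picked later. Some genes that this rule names are not reported here. The alternatives were DESeq2 1.42.0, limma 3.58.1 (voom, or log2 of FPKM + 1 or + 0.1), factors by RLE or upper quartile, other filters, coding genes alone, a block for the replicate number, each library left out, and, added later, unscaled library totals and longest-transcript length. Figures were drawn with matplotlib 3.10.9.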

Additional observations from a re-analysis of the deposited data

How the results depend on the processing

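RUNX1, RUNX2 and ALPL kept their direction and their call in all 17 alternatives each, with log2 fold changes of 0.83 to 1.66, -1.65 to -0.27 and -0.72 to -0.50 and a highest adjusted p of 2.16e-05, 0.00224 and 0.00137. The smallest sizes came from log2(FPKM + 1), where the pseudocount shrinks low genes. CBFB (-0.14 to -0.05, adjusted p 0.0696 to 0.588) and BGLAP (0.23 to 1.24 in 16 fits, adjusted p 0.0638 to 0.612) passed in none, and BGLAP failed the filter of 1 CPM in 3 libraries. With no filter, 2 members were higher instead of 1, the addition being RUNX3. Without 1 library each, RUNX3 ratios ran from 2.15 to 4.98 and SP7 ratios from 0.376 to 1.45. The RUNX1 share rose by 26.9 percentage points with FPKM, 19.0 with counts and 21.6 with longest-transcript length.

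The replicate number as a block called 5208 genes higher, against 5152, and changed no member's call. Same-numbered libraries correlated by 0.00688, 0.0944 and -0.0399 in their deviations from the group means, and not every library correlated best with its own number, so the numbers were not taken as pairs. Unscaled totals moved the median of all genes to -0.07 and left 44.2% of calls higher, against 50.9%. In the marker lists, blood markers had 1 higher with 1 CPM in 3 libraries, and 2 lower with upper-quartile factors, limma-voom and unscaled totals. Fibroblast markers had 1 lower with upper-quartile factors and unscaled totals. Chondrocyte markers had 1 lower with log2(FPKM + 1) and 0 with log2(FPKM + 0.1). With 1 library left out, the RUNX1 and RUNX3 targets had 3 to 5 higher, chondrocyte markers 2 to 3 higher and 1 to 2 lower and osteoclast markers 1 to 2 lower. Depth limits RUNX3, SP7, IBSP and BGLAP, each with at most 37 counts in a group.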
